A study of Mus musculus with 272 samples.

Results

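The clustered protocadherin genes are 57 protein-coding genes of GENCODE M21 (mm10) on chromosome 18 whose symbols begin with Pcdha, Pcdhb or Pcdhg, out of 21938 protein-coding genes on the assembled chromosomes. The rule that defines them uses name and position and no measured value. They comprise 14 Pcdha, 22 Pcdhb and 21 Pcdhg genes. All 57 lie on the plus strand within 912 kb of mm10 (chr18:36930184-37841873), and 2 gene records share the symbol Pcdha11. Chromatin was profiled in muscle stem cells (MuSCs), the Pax7-expressing cells that rebuild skeletal muscle after injury, with 2 replicates each of ATAC-seq, which finds open chromatin, and of ChIP-seq against H3K4me3, H3K27me3 and H3K27ac, 8 libraries of the 272 samples of the series. The mice were of the Pax7Cas9 line, in which Cre made from the Pax7 gene turns on a Cas9-EGFP transgene at Rosa26, and MuSCs were sorted from hindlimb muscle by their GFP. All 8 libraries share this genotype and there is no other group, so the design holds no contrast between conditions. The labels of these libraries give neither age nor strain, and nothing used here states that the replicates came from separate animals.

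Clustered protocadherins are cell adhesion proteins best known from neurons, where each cell switches on its own small set of isoforms and so gains a surface identity. Most members are variable exons, each with its own promoter. In the Pcdha and Pcdhg clusters each variable exon is spliced to a shared set of constant exons that encode the cytoplasmic end, whereas each Pcdhb gene is a single exon of its own. The last variable exons of Pcdha (Pcdhac1, Pcdhac2) and Pcdhg (Pcdhgc3, Pcdhgc4, Pcdhgc5) are called C-type and, in many neurons, are used in a fixed rather than a random way. CTCF and cohesin link the chosen promoters to distant enhancers, and the promoters of silent isoforms carry DNA methylation, which was not measured here. H3K4me3 marks active or poised promoters, H3K27ac active promoters and enhancers, and H3K27me3 genes repressed by Polycomb.

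The deposited lists held 94382 to 140716 peaks for ATAC-seq, 18001 to 20512 for H3K4me3, 6064 to 10458 for H3K27me3 and 18584 to 24209 for H3K27ac. They give each peak's fold enrichment at the summit and no read numbers, so the depth is unknown, and a promoter without a listed peak may have fallen under the authors' threshold or lie in sequence that was removed. Promoters of 13 MuSC marker genes were checked, of which 12 had an ATAC-seq peak in both replicates, and H3K4me3 and H3K27ac each likewise marked 12 (not the same 12 each time). Markers of other cells were marked less often but not absent. In both replicates, H3K27ac peaks lay at 3 of 10 fibro-adipogenic, 2 of 10 myofibre, 1 of 10 endothelial and 0 of 10 neuronal marker promoters. ATAC-seq peaks lay at 7 of 10 myofibre, 5 of 10 endothelial, 5 of 10 fibro-adipogenic and 4 of 10 neuronal markers. H3K4me3 peaks lay at 5 of 10 fibro-adipogenic, 3 of 10 endothelial, 3 of 10 neuronal and 1 of 10 myofibre markers. Over all protein-coding genes the shares were 42.7% for H3K27ac, 59.7% for ATAC-seq and 56.5% for H3K4me3. The part of other cells in the protocadherin peaks was not tested. The members resemble one another in sequence, and reads that map to several places were removed by the authors. In every member's promoter window, at least 92.3% of the 100-base words tested occurred at only 1 place in mm10. Only exact matches were counted, so copies that differ by a few bases were not covered. Loss of reads to such copies was not tested. A second check used another gene inside the array. Taf7, which encodes a subunit of the general transcription factor TFIID and lies between the Pcdhb and Pcdhg genes, had no listed peak of any feature, although its promoter was CpG-rich and 100% of its words occurred at 1 place. Of the 6457 protein-coding promoters of that kind, 150 (2.32%) had no listed peak. Taf7 sits in a 144 kb stretch without a listed peak (chr18:37505965-37649675) that also holds the start sites of Pcdhb21 and Pcdhb22. The authors removed blacklisted regions before calling peaks. Whether sequence elsewhere in the array was also without rows for a reason other than weak signal was not tested, so the counts of members without a peak given here are counts of listed peaks and not of silent promoters.

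Few member promoters carried a peak. A promoter was taken as 1 kb either side of the start site of the transcript with the longest coding sequence, and neighbouring members' windows did not overlap, since the closest start sites were 4131 bp apart. ATAC-seq peaks lay at 8 of 57 promoters in replicate 1 and 5 in replicate 2, a mean of 11.4% ± 3.72 (SD, n = 2), and at the same 5 in both replicates (8.77%, against 59.7% of all protein-coding genes). H3K4me3 peaks lay at 6 and 4 promoters, and at 4 in both replicates (7.02%, against 56.5% of all protein-coding genes). H3K27ac peaks lay at 1 promoter in each replicate, the same one (1.75%, against 42.7%). H3K27me3 peaks lay at none in either replicate (0%, against 3.45%), so no member had both H3K4me3 and H3K27me3 in both replicates, the pair that marked 2.52% of all protein-coding genes.

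For 47 of the 57 members (82.5%) none of the 8 lists held a promoter peak, against 33.9% of all protein-coding genes. This share was lowest in Pcdhg, whereas Pcdha and Pcdhb differed by few genes. No peak was listed at 12 of 14 Pcdha promoters (85.7%), 21 of 22 Pcdhb promoters (95.5%) and 14 of 21 Pcdhg promoters (66.7%). With Pcdhb21 and Pcdhb22 left out because of the stretch around Taf7, the count was 45 of 55 members (81.8%). No test was made of these shares, because neighbouring genes of one array are not independent and the groups are not conditions.

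**Figure D1:**
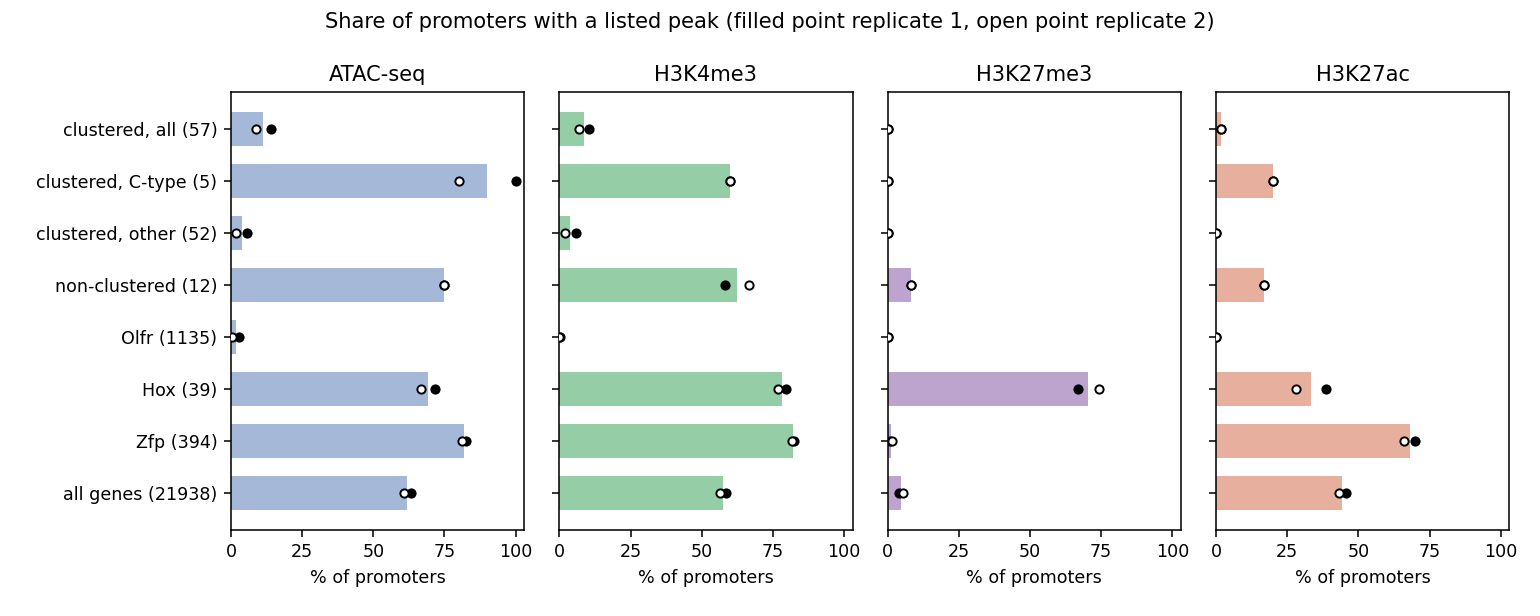
Share of promoters (%) with a listed peak within 1 kb of the start site, for the clustered protocadherins, their C-type and remaining members, the non-clustered protocadherins, Olfr, Hox and Zfp genes, and all protein-coding genes (number of genes in brackets). Bars are the mean of 2 replicates, filled points replicate 1 and open points replicate 2; the clustered members other than C-type stay at or below 5.77% in every panel.

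The peaks seen in both replicates fell mostly on the C-type members. In both replicates, ATAC-seq peaks lay at 4 of the 5 C-type promoters and at 1 of the 52 others (1.92%), and H3K4me3 peaks at 3 of 5 and 1 of 52. Counting replicate 1 by itself, ATAC-seq peaks lay at 5 C-type and 3 other promoters, and H3K4me3 peaks at 3 and 3. The 5 members with a peak in both replicates were in 3 states. Pcdhgc3 had peaks of H3K27ac, H3K4me3 and ATAC-seq, the state of 42% of all protein-coding genes. Pcdhac2, Pcdhgc4 and Pcdhgb6 had ATAC-seq and H3K4me3 peaks without H3K27ac, the state of 10.7% of all genes. Pcdhgc5 had an ATAC-seq peak alone, as 4.35% of all genes did.

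Pcdhgc3, a C-type isoform that promotes dendrite growth in cortical neurons, had the strongest promoter of the array. Its ATAC-seq peak, centred 71 bp before the start site (chr18:37806410) in replicate 1 and 68 bp before it in replicate 2, had a fold enrichment of 20.6 in replicate 1 and 18.6 in replicate 2. These values exceeded 88.5% and 86.1% of all promoter ATAC-seq peaks of the same list. Its H3K4me3 peak had a fold of 27.8 in replicate 1 and 13.5 in replicate 2, against medians of 23.9 and 17.6 over all promoter peaks, so that it was above the median in replicate 1 and below it in replicate 2. The breadth of this peak stood out more than its height. At 4467 bp and 3392 bp it was wider than 97.8% and 97.2% of the promoter H3K4me3 peaks, and it ran mainly into the gene. The H3K27ac peak had folds of 19.9 and 11.8, against medians of 13.9 and 12, and spanned 3303 bp in replicate 1, whereas in replicate 2 the same ground was covered by 3 peaks with folds of 11.8, 8.09 and 4.34.

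The other C-type promoters were weaker. Pcdhac2, which serotonergic neurons need to spread their axons, had an ATAC-seq peak of fold 8.17 and 6.78 in replicates 1 and 2, and an H3K4me3 peak of fold 10.6 and 7.33 over 1175 bp and 877 bp. Its H3K4me3 fold exceeded that of 16.7% and 12.9% of promoter peaks, so it lay in the lower part of the distribution in both replicates. Pcdhgc4, the isoform required for the survival of many neurons, had H3K4me3 peaks of fold 8.08 and 5.01 over 1470 bp and 1415 bp. Its ATAC-seq peaks were weak, with folds of 4.62 and 3.51, and did not overlap between replicates, the summits lying 92 bp before and 244 bp after the start site. Accessibility of Pcdhgc4 thus counts as present in both replicates only because both peaks fall in the promoter window.

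Pcdhgc5 was open without a listed histone mark. Its ATAC-seq peak had folds of 6.13 and 4.33 and widths of 313 bp and 260 bp, with summits 217 bp and 144 bp before the start site. Pcdhac1 had an ATAC-seq peak in replicate 1 only (fold 6.13, 94 bp wide, summit 41 bp before the start site), and no peak of any histone mark. Of the 5 C-type promoters, Pcdhac1 was thus the one without a peak seen in both replicates.

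**Figure D2:**
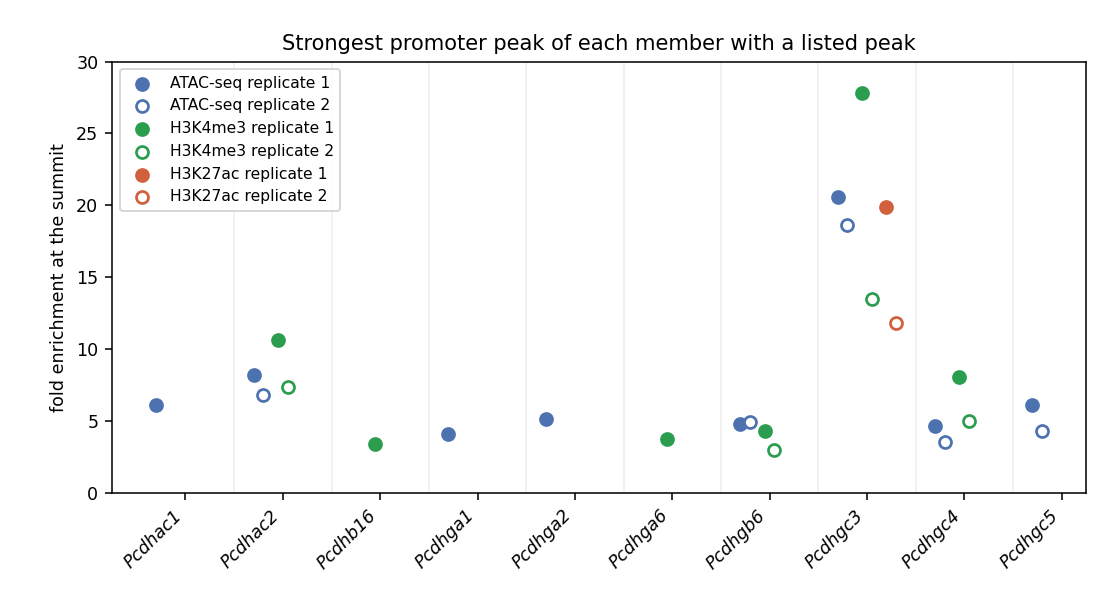
Fold enrichment at the summit of the strongest promoter peak (y axis) for the 10 members with any listed peak, in array order, by feature (colour) and replicate (filled 1, open 2). Pcdhgc3 stands above the other members in each of its lists, and 5 members have a point in replicate 1 only.

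Among the 52 remaining members, which neurons choose at random, Pcdhgb6 was the only one with peaks in both replicates. Its ATAC-seq peak had folds of 4.77 and 4.93 and its H3K4me3 peak folds of 4.31 and 3.01, with −log10 q of 7.68 and 2.53. These H3K4me3 values were higher than 3.75% and 0.443% of promoter peaks of the same lists, close to the lowest that were called. Asking for a −log10 q of at least 5 removed Pcdhgb6 from the H3K4me3 count and left 3 members. In addition, 4 members had a peak in replicate 1 alone. Pcdhga1 and Pcdhga2, the first Pcdhg variable exons, had narrow ATAC-seq peaks of fold 4.09 and 5.11 with summits 52 bp and 55 bp before their start sites. Pcdhga6 and Pcdhb16 had H3K4me3 peaks of fold 3.77 and 3.41, centred 131 bp and 235 bp after the start site. Their folds were higher than those of at most 5.86% of the promoter peaks of the same list, and none of these peaks recurred in replicate 2. The libraries were made from pools of cells, so a promoter marked in few cells cannot be told apart from one marked weakly in many.

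In Pcdha, no promoter from Pcdha1 to Pcdha12 had a listed peak, and these 12 start sites lay in a 131 kb stretch without a peak in any list (chr18:36919851-37051230). In Pcdhb, the start sites of 7 members from Pcdhb1 to Pcdhb7 and of 9 from Pcdhb8 to Pcdhb16 lay in stretches of 91.1 and 133 kb without a peak. The latter stretch ended at the replicate 1 H3K4me3 peak of Pcdhb16. Unlike the stretch around Taf7, these hold no other annotated protein-coding genes than 3 read-through models of Pcdha, so that the same check could not be made there. When the promoter was widened to 3 kb either side, the number of members without a peak in any list fell from 47 to 44, through replicate 1 ATAC-seq peaks 1659 bp from the start site of Pcdhb20, 2407 bp from that of Pcdhga11 and 2616 bp from that of Pcdhb7. No member gained a peak in both replicates.

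The peaks were also uneven along the array. Over all 912 kb there were 40 ATAC-seq peaks in replicate 1 and 23 in replicate 2, or 43.9 and 25.2 per Mb, against 51.6 and 34.6 per Mb over the genome. From the start of the array up to the Pcdhgc3 promoter (875 kb), there were 22 and 8 (25.1 and 9.14 per Mb). Within this ground, the 45.2 kb from the Pcdhac2 promoter to the end of Pcdha held 6 and 5 (133 and 111 per Mb). That is also above the genome rate, and includes the peaks of the Pcdhac2 promoter. In the last 36.5 kb, from the Pcdhgc3 promoter to the end, there were 18 and 15 (494 and 411 per Mb). The same split held for H3K27ac, with 1 and 0 peaks before the Pcdhgc3 promoter and 9 and 8 after it (247 and 219 per Mb, against 8.88 and 6.82 over the genome). H3K4me3 had 5 and 2 peaks before it and 3 and 2 after it. The boundaries at Pcdhac2 and Pcdhgc3 were not among the regions planned in advance, and the last 36.5 kb include the peaks of the Pcdhgc3 promoter itself. After the Pcdhgc5 promoter alone (21.4 kb), there were 11 and 9 ATAC-seq peaks (515 and 421 per Mb).

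The replicates differed mainly through peaks listed in replicate 1 alone. Of the ATAC-seq peaks of replicate 1, 16 of 18 in the last 36.5 kb overlapped one of replicate 2, and 7 of 22 before it did. Of those of replicate 2, 14 of 15 and 7 of 8 overlapped one of replicate 1. Over the whole array 17 of the 40 peaks of replicate 1 and 2 of the 23 of replicate 2 had no counterpart. Narrow peaks were more common in replicate 1, in which 62.5% of all ATAC-seq peaks were under 150 bp, against 37.6% in replicate 2, and their part in this difference was not tested.

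**Figure D3:**
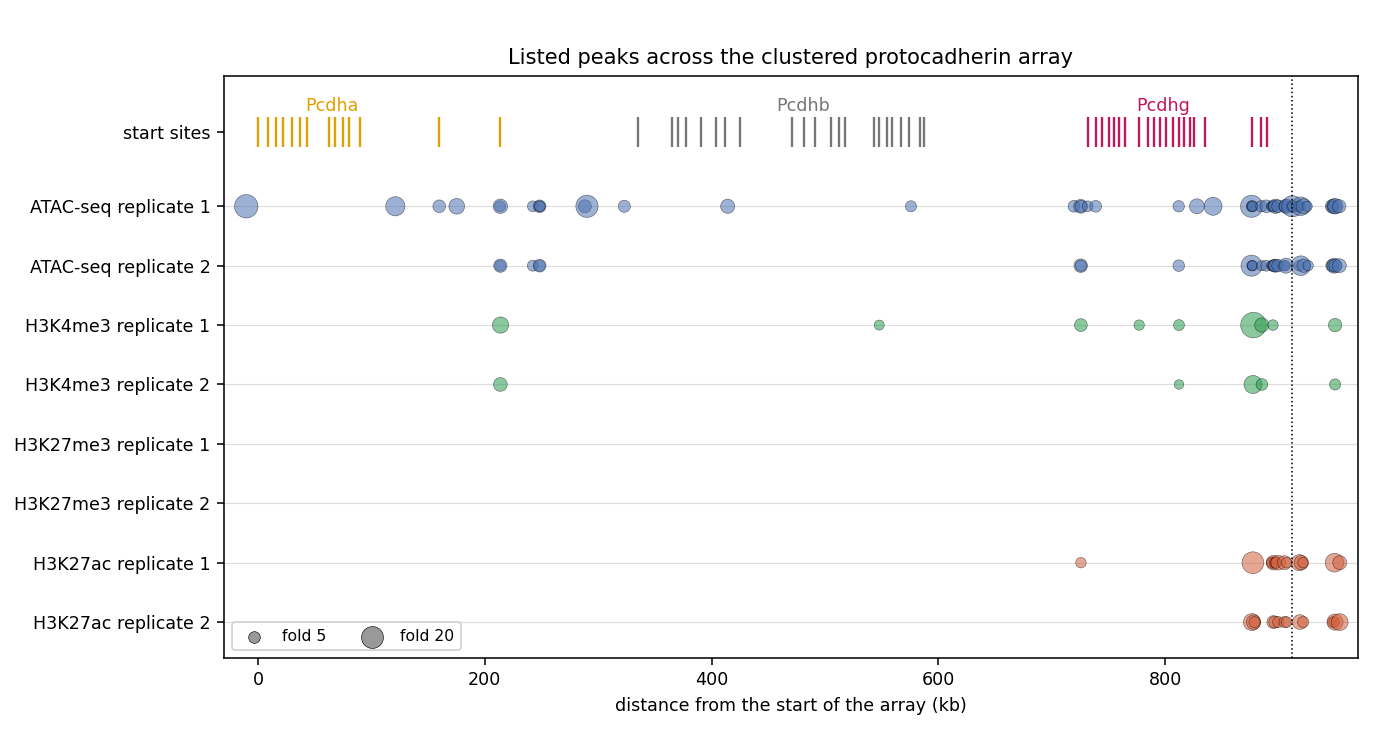
Listed peaks of each of the 8 lists (rows) by distance from the start of the array (x axis, kb), with circle area growing with fold enrichment, above them the start sites of the 3 clusters, and a dotted line at the end of the array. The Pcdhb stretch is almost empty, both H3K27me3 rows are empty, and peaks crowd from the Pcdhgc3 promoter (876 kb) onwards.

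The end of Pcdhg also held acetylated chromatin away from its start sites. Between the Pcdhgc5 promoter and the end of the array (21.4 kb), H3K27ac peaks numbered 8 in replicate 1 and 5 in replicate 2 and covered 24.9% and 13.8% of the sequence, against 0.744% and 0.54% of the genome. No H3K27ac peak lay at the Pcdhgc4 or Pcdhgc5 promoter. One began at the first constant exon, the 59 bp exon shared by all 21 Pcdhg members (chr18:37825021-37825079), with folds of 8.43 and 6.25, and ran into the following intron. The same exon was overlapped by ATAC-seq peaks of fold 3.99 and 3.47 and, in replicate 1 only, by an H3K4me3 peak of fold 3.95. The second constant exon had no peak of any feature, and the last had a weak ATAC-seq peak in replicate 1 only (fold 3.53).

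Between the constant exons, a strong ATAC-seq peak of both replicates lay 7843 and 7836 bp after the Pcdhgc5 start site (folds 8.04 and 6.54). Stronger still in replicate 2 was a peak 17012 bp after that start site (fold 9.06). Replicate 1 listed separate peaks under it, 16992 and 17382 bp after the start site (folds 6.8 and 8.18). Within 50 kb past the array there were 14 and 9 further ATAC-seq peaks and 5 and 6 further H3K27ac peaks. The strongest seen in both replicates was an ATAC-seq peak 30142 and 30147 bp after the Pcdhgc5 start site, with folds of 14.3 and 16, with H3K27ac peaks of fold 10.5 and 8.05 on its sides in replicate 1 and one of fold 8.65 across it in replicate 2. Nearly all of these 50 kb, with this peak, lie inside another gene, Diaph1 (chr18:37843601-37935476). Its own promoter had H3K27ac peaks of fold 17.6 and 14.3. Which gene the peaks past the array act on was not tested. Enhancers that act on the array are known from neural tissue in the ground past the Pcdhg constant exons. Their positions were not compared with these peaks.

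**Figure D4:**
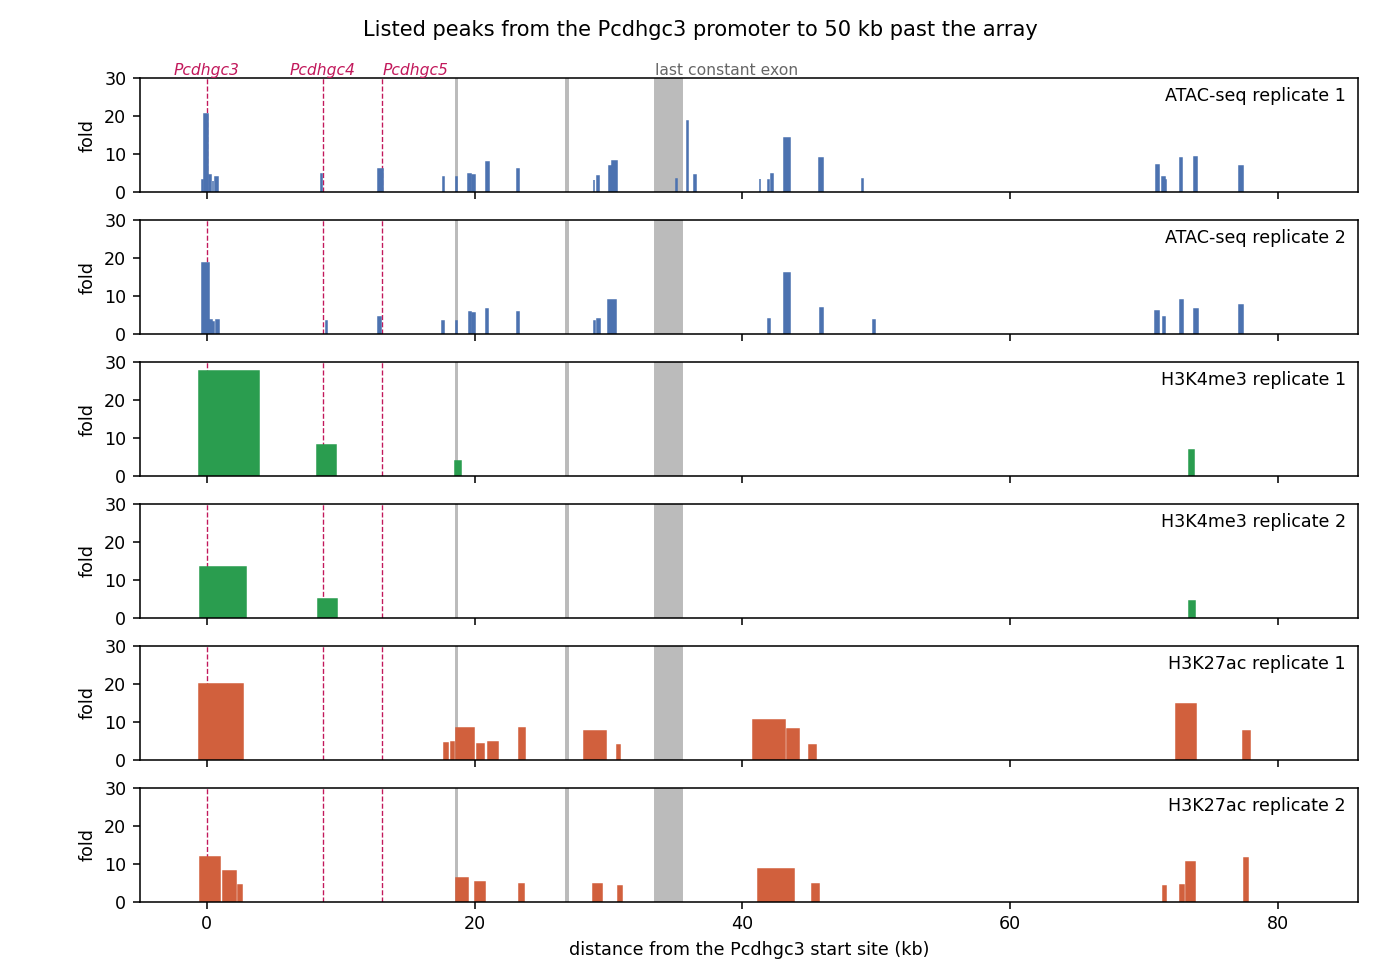
Listed peaks from 5 kb before the Pcdhgc3 start site to 50 kb past the array, by distance from that start site (x axis, kb), each bar as wide as the peak and as high as its fold enrichment (y axis), with 1 panel for each list that has peaks there. Dashed lines mark the Pcdhgc3, Pcdhgc4 and Pcdhgc5 start sites and grey bands the Pcdhg constant exons; H3K4me3 is broad at Pcdhgc3, and H3K27ac is absent at Pcdhgc4 and Pcdhgc5 and present beyond them.

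Among the constant exons, the Pcdha cluster differed from Pcdhg mainly at the first. None of the 3 Pcdha constant exons, shared by all 14 members, was overlapped by a peak of any feature in either replicate, and the cluster had no H3K27ac peak. Small ATAC-seq peaks recurred in the intron before the last of them, 28985 and 29034 bp after the Pcdhac2 start site (folds 4.09 and 4.32) and 35031 and 35003 bp after it (folds 6.13 and 6.17). An enhancer of the cluster is known in this intron from neurons. Between the Pcdha and Pcdhb genes, replicate 1 listed 3 ATAC-seq peaks, among them a sharp one of fold 20.8 and 89 bp, and replicate 2 none.

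No H3K27me3 peak lay anywhere in the 912 kb in either replicate, and the nearest ones were 204 and 203 kb before the array and 368 and 367 kb after it. Over the genome there were 2.22 and 3.84 H3K27me3 peaks per Mb, so 912 kb would hold few at that rate. These lists were sparse, covering 0.0608% and 0.118% of the genome. They did hold peaks at Polycomb targets. Of 39 Hox genes, 26 had an H3K27me3 promoter peak in both replicates (66.7%). Taking the H3K27me3 list of either replicate by itself, no member had a promoter peak, against 4% and 5.52% of all protein-coding genes.

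The 4 members with the GC-richest promoters were all marked, as were most protein-coding genes with GC-rich promoters. The other marked members were spread over lower GC contents. Over 250 bp before to 50 bp after the start site, read from the mm10 genome, the median GC content was 39.7% for the 57 members (range 30.7% to 63%) and 55.7% for all protein-coding genes. The 5 C-type promoters had a median of 54.7% and the other 52 one of 39.7%. The members above 50% GC were Pcdhgc3 (63%), Pcdhac1 (60.7%), Pcdhgc5 (54.7%) and Pcdhac2 (52.3%), all of them C-type, and each had an ATAC-seq peak in at least 1 replicate. Of the 15066 protein-coding genes with at least 50% GC, 16.2% had no listed peak. ATAC-seq peaks in both replicates lay at 75% of these 4 members and 77.6% of those genes, and H3K4me3 peaks at 50% and 73.8%. Pcdhgc4 (47.3%) and Pcdhgb6 (46.7%), with peaks in both replicates, were below Pcdhga9 (49%) and Pcdhb1 (48.3%), which had none, and Pcdhga6, marked in replicate 1, had 32.7%. Of the 53 members below 50%, 47 had no listed peak (88.7%), which is to be read against 72.6% of the 6872 protein-coding genes with such promoters. ATAC-seq peaks in both replicates lay at 3.77% of these 53 members and 20.6% of those genes, and H3K4me3 peaks at 3.77% and 18.5%. The ratio of observed to expected CpG separated the members less. Its median was 0.521 over the members and 0.553 over all genes, and Pcdha6 and Pcdha8, with 0.95 and 0.949, had no peak.

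**Figure D5:**
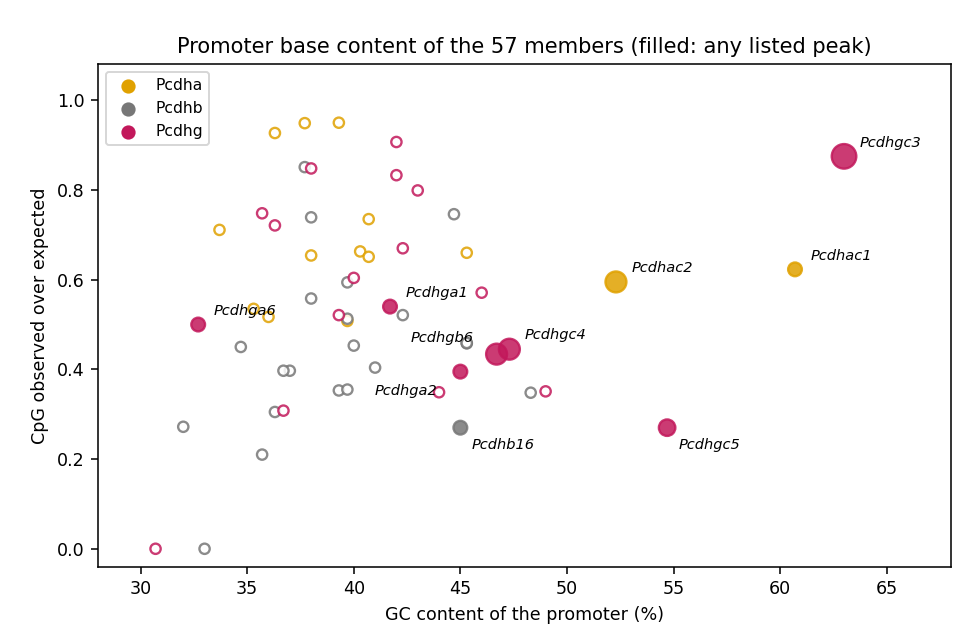
GC content (x axis, %) and observed over expected CpG (y axis) of the promoter of each of the 57 members, 250 bp before to 50 bp after the start site, coloured by cluster. Filled points have a listed peak, larger points have peaks in more lists, and the 4 members above 50% GC are all filled.

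Short motifs were counted on both strands of the same 300 bp. GGCGCT, which holds the CGCT core of the conserved element of protocadherin promoters, was found in 25 of 57 members (43.9%), against 19.3% of all protein-coding promoters. The clusters differed, with 18 of 22 Pcdhb promoters (81.8%), 5 of 21 Pcdhg promoters (23.8%) and 2 of 14 Pcdha promoters (14.3%). Pcdhgc3, Pcdhgc5 and Pcdhac1 held it, whereas Pcdhac2, Pcdhgc4 and Pcdhgb6 did not, so it was present and absent among marked members alike, and Pcdhb, where it was most frequent, had no promoter peak in both replicates. AGGGGGC, part of the core of the CTCF motif, with A also accepted as its base 3 and T as its base 4, was found in 5 members (8.77%), against 29.4% of all promoters. The 1135 olfactory receptor (Olfr) promoters, with a median GC content of 37.3%, held it at 8.99%. A match to a short word is not a binding site, and the part of GC content in these shares was not tested. TATAAA was found in 10 members (17.5%), none of them C-type, against 12.6% of all promoters.

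The 12 non-clustered protocadherins, which share the cadherin repeats but are single genes at other places, were marked more often than the clustered ones. In both replicates, 9 of 12 had ATAC-seq peaks (75%, against 59.7% of all protein-coding genes). H3K4me3 peaks lay at 7 (58.3%, close to the 56.5% of all genes). Only Pcdh7 and Pcdh18 also had H3K27ac peaks (16.7%, below the 42.7% of all genes). Pcdh10 had an H3K27me3 peak in replicate 1 and Pcdh8 in replicate 2, and neither recurred. Pcdh1, Pcdh12 and Pcdh15 had no peak of any feature in both replicates.

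The 1135 Olfr genes, another family whose members are chosen singly in neurons, were marked less often than the clustered protocadherins in every one of the lists in which a member had a peak. In both replicates they had ATAC-seq peaks at 4 promoters (0.352%), H3K4me3 peaks at 0 and H3K27ac peaks at 1. Most neighbours of the array were marked. Of the 10 protein-coding genes before it and the 10 after it, 8 and 8 (80% each) had both ATAC-seq and H3K4me3 peaks in both replicates. Over all protein-coding genes, 59.7% had ATAC-seq peaks and 56.5% H3K4me3 peaks in both replicates. Some neighbours shared the same peaks, such as Ndufa2 with Ik and Hars with Hars2, so they are not all separate promoters. Inside the array, the 5 further protein-coding genes, Taf7, the mitochondrial carrier gene Slc25a2 and 3 read-through models, had none. The genes for factors known to act on the array (Ctcf, the cohesin genes Rad21, Smc1a and Smc3, the cohesin loader Nipbl and unloader Wapl, Dnmt3b, Setdb1, Smchd1, Rest and the Polycomb genes Ezh2, Eed and Suz12) were all marked, 13 of 13, by H3K27ac, H3K4me3 and ATAC-seq promoter peaks in each replicate.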

How the data were processed

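ATAC-seq and ChIP-seq reads of MuSCs had been trimmed (Trim Galore), aligned to mm10 (BWA), cleared of low-quality, duplicate and blacklisted alignments and, for ATAC-seq, corrected for the Tn5 offset by the authors, who called peaks with MACS2 for each replicate. In the deposited lists, the fold enrichment is the authors' ratio of pileup to background at the summit, and p-values and q-values are given by the authors on the −log10 scale. The deposited score is a rescaled p or q and was not used further. H3K27me3 peaks were selected on p, the others on q.

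A promoter had a peak when at least 1 bp lay within 1 kb of the start site. Folds were ranked within lists only. A peak counted in a region from 1 bp of overlap. With 2 replicates of 1 condition, results are counts without a test. Overlap counting was checked on 2000 simulated peaks. GC content, motifs and the uniqueness of 100-base words, taken every 50 bp, were read from mm10. The family, its name-based rule and the gene lists were chosen with earlier results of these data known. Named were the C-type members, those strongest for each feature and cluster, states with few members, flanking genes, non-clustered protocadherins and regulators. Taf7, stretches over 80 kb without peaks and the boundaries of 50% GC and 0.75 CpG ratio were chosen after values were seen. The regions cut at the Pcdhac2, Pcdhgc3 and Pcdhgc5 promoters and the ground past the array were not among the regions planned in advance. Alternatives were other windows, start sites, thresholds and single replicates. Python 3 with pandas was used. Editing outcomes and the remaining samples were not analysed here.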

Additional observations from a re-analysis of the deposited data

How the results depend on the processing

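Of 68 values computed under other choices, not counting densities of single replicates, 66 stayed within 1.5 times the reported count or 1 SD of the reported density. Many of these values could not change, so this count says little about stability. Those for H3K27me3 were fixed at 0, because the array held no such peak. Asking for a q of at most 0.05 removed no ATAC-seq, H3K4me3 or H3K27ac peak, since their lowest −log10 q was 1.32. With the replicates taken singly, members with an ATAC-seq peak numbered 5 to 8, and peaks per Mb over the array were 25.2 to 43.9 for ATAC-seq, 4.39 to 8.77 for H3K4me3, 8.77 to 11 for H3K27ac and 0 for H3K27me3. With 2 replicates, each lies within 1 SD of their mean by construction. H3K27ac peaks over the array fell from 9.87 to 4.94 per Mb when a −log10 q of at least 5 was asked for, because fewer peaks then remain. Members without any peak numbered 44 to 52 over all alternatives. H3K27me3 stayed at 0 members in each, as it had to with its nearest peak 203 kb from the array. Leaving out Pcdhb21 and Pcdhb22 was added after seeing the data. No paired analysis was possible because the results come from no test. Depth is unknown, so that weak signal under the authors' thresholds cannot be seen.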

Other observations

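Sharp ATAC-seq peaks at 5 places in and beside the array were listed in replicate 1 alone, although their folds were high. They had folds of 23.2 (115 bp, about 10.4 kb before the start of the array), 15.3 (96 bp, 31124 bp after the Pcdha12 start site), 20.8 (89 bp, 44684 bp before the Pcdhb1 start site), 13.3 (106 bp, 6799 bp after the Pcdhga12 start site) and 18.8 (126 bp, 22794 bp after the Pcdhgc5 start site, just past the array). Replicate 2 listed no ATAC-seq peak at any of these places, and none of them had a histone peak.

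A stretch 6 kb before Pcdhga1 was marked outside any member's promoter. ATAC-seq peaks lay there in both replicates (folds 7.49 and 7.09, summits 6154 and 6126 bp before the Pcdhga1 start site), and in replicate 1 only an H3K4me3 peak of fold 6.28 and an H3K27ac peak of fold 3.83. Pcdhga1 itself had a weak ATAC-seq peak in replicate 1 alone (fold 4.09).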
